A study of Mus musculus with 8 samples.

Results

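Lin28a, Lin28b, Trim71, Zcchc11, Zcchc6, Hmga1, Hmga2, Igf2bp1, Igf2bp2 and Igf2bp3 form the regulatory axis around the let-7 microRNAs and its fetal and tumour-associated ("oncofetal") target genes. The 10 genes were taken by symbol from the deposited gene table, where each had 1 of the 17922 rows. The study followed mouse embryonic fibroblasts (MEFs) as they were reprogrammed to induced pluripotent stem cells (iPSCs). Long RNA was sequenced in 4 libraries, 1 each from uninduced MEFs (day 0), from cells on day 3 and day 6 of induction, and from fully reprogrammed iPSCs. All cells were of strain C57BL/6, and the MEFs came from fetuses of 13.5 days that carried the tetO-OSKM transgene, so the uninduced cells had it too. Doxycycline at 2 ug/ml switched on Pou5f1, Sox2, Klf4 and Myc in medium with serum replacement, LIF, N-2 supplement and CHIR99021, which inhibits GSK3. No source used here gives the number of animals or cultures behind a library, the iPSC clone or the medium of the uninduced MEFs.

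LIN28A and LIN28B are RNA-binding proteins of early embryonic cells that block the maturation of let-7. They bind the precursor hairpin, and LIN28A recruits the terminal uridylyl transferases TUT4 (gene Zcchc11) or TUT7 (gene Zcchc6), whose uridine tails mark the hairpin for decay. Mature let-7 in turn silences mRNAs that carry sites for its seed, among them those of Lin28a, Lin28b, Trim71, Hmga2 and the Igf2bp genes. High LIN28 with low mature let-7 is a known mark of pluripotent cells, and mature let-7 is abundant in fibroblasts. The 4 small RNA libraries of the series, which would hold mature let-7, were not used here, so no let-7 level is given.

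The seed of let-7 is the stretch that pairs with its target mRNAs, and sites in the 10 genes were not examined here. RefSeq (build GRCm38.p6) gave 11 different mature let-7 family members, and 10 of them shared the seed GAGGUAG at bases 2 to 8. The exception was let-7j with GAGGUAU. In the mature sequences of the following 6 members the seed is in capitals, and they were chosen to show how little the family varies there and how it varies behind it. In GRCm38.p6 they lie at chr13:48538239-48538260 on the minus strand (let-7a, from its first gene), chr13:48536078-48536099 on the minus strand (let-7d), and on the plus strand at chr17:17830366-17830387 (let-7e), chr9:106178846-106178867 (let-7g), chrX:151913229-151913250 (miR-98) and chr3:140028281-140028304 (let-7j).
let-7a-5p: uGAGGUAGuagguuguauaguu
let-7d-5p: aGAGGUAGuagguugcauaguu
let-7e-5p: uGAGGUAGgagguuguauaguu
let-7g-5p: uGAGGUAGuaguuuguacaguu
miR-98-5p: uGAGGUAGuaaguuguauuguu
let-7j: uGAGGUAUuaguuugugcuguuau

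The precursors differ in GGAG, a stretch that the zinc knuckles of LIN28 are known to bind. A search between the arms found these exact letters in 9 of the 12 hairpins of the family for which both arms are annotated. The 3 without GGAG there were those of let-7b, let-7c-2 and miR-98. Variants of the stretch were not sought. Hairpins with and without it are shown by let-7g (chr9:106178840-106178927, plus strand) and let-7c-2 (chr15:85706603-85706697, plus strand), with GGAG in capitals.
let-7g hairpin: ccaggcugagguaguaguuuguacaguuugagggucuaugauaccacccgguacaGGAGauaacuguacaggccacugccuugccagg
let-7c-2 hairpin: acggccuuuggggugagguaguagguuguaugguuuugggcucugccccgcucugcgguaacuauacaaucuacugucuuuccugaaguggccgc

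Values are FPKM as deposited, which are scaled to gene length and library size and can be compared between genes. With 1 library per stage there is no replicate error, no test and no p-value. Differences are on the scale log2(FPKM + 1), which understates those of weakly expressed genes, and a gene is called higher or lower where the difference is at least 1 and the higher of the compared values is at least 1 FPKM. The columns summed to between 438130 and 486609 FPKM. The depth is unknown, and the steps of the lowest values put the fragments of the day 3 library at about 0.660 of those of the MEF library. The MEF and iPSC libraries matched their labels by markers. The 8 pluripotency markers together had 1.30 FPKM in MEFs, 4.83 and 11.1 on days 3 and 6, and 1894 in iPSCs. The values on days 3 and 6 were mostly those of Pou5f1 (3.03 and 8.56 FPKM) and Sox2 (1.19 and 2.03 FPKM), which are factors of the transgene, and Nanog was at 0.270 and 0.241 FPKM. The 8 fibroblast markers summed to 2907, 3285, 3718 and 27.1 FPKM in the same order. Of the other marker sets, the germ cell markers summed to 0.244, 0.161, 0.172 and 45.0 FPKM, the endothelial to 0.423, 1.31, 2.15 and 29.0, the muscle to 0.782, 1.18, 1.51 and 29.5, the primitive endoderm to 3.45, 3.10, 3.54 and 14.2, and the neural to 22.7, 28.0, 37.1 and 15.4. In iPSCs, Pecam1 made up 26.2 FPKM of the endothelial sum, with Tek at 2.45, Cdh5 at 0.202 and Kdr at 0.0906. Des made up 24.7 FPKM of the muscle sum, with Actc1 at 4.66 and Myog at 0.0909. Tek and Actc1 were called higher in iPSCs than in MEFs, as were Pecam1 and Des. So were Dazl, Ddx4 and Prdm14, which made up 26.3, 11.1 and 6.75 FPKM of the germ cell sum, with Nanos3 at 0.878. Whether cells of these types were present in the iPSC library, and their part in its differences, was not tested. In bulk RNA, fewer cells with a transcript and less transcript per cell cannot be told apart.

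In iPSCs, 7 of the 10 genes were called higher than in MEFs, 1 (Hmga2) was called lower, and Zcchc6 and Igf2bp2 were within the rule. Over the whole table, 21.1% of the rows compared were called higher and 25.0% lower in this comparison. The median difference of the 10 genes was 1.71 and that of all 12937 rows compared was -0.05. Against day 6 in place of MEFs the same counts were 7 higher and 1 lower, beside 20.4% and 23.4% of all rows, with a median of 1.13. These comparisons share the iPSC library. Lin28a, Lin28b and Trim71 were under 1 FPKM in the other libraries and met the minimum only through it. They could therefore be called only as higher, and the medians of the 10 genes include them. The members were chosen as genes known for this axis, and their counts describe them without testing them as a group.

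**Figure D1:**
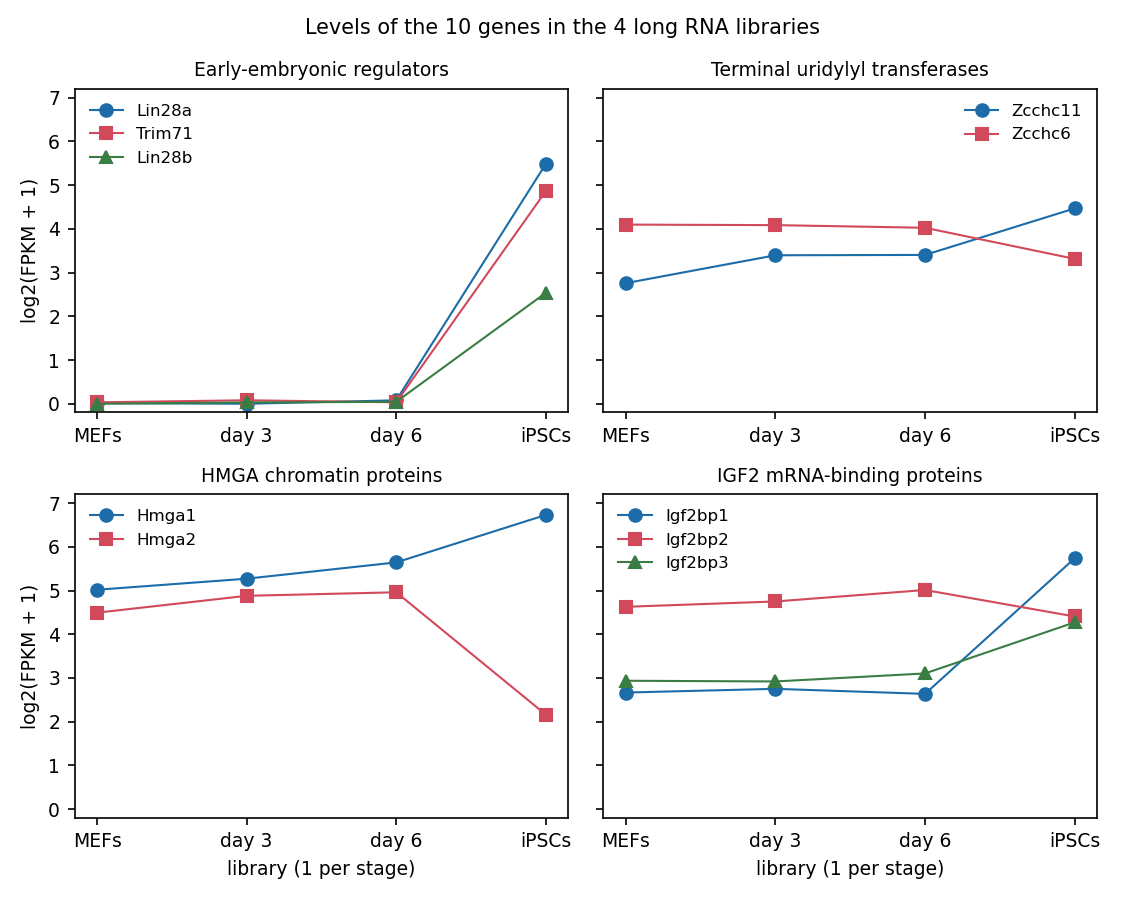
Level of each of the 10 genes, as log2(FPKM + 1), in the 4 long RNA libraries, with lines joining the values of 1 gene and no error bars since each stage had 1 library. Lin28a, Lin28b and Trim71 lie near 0 until day 6, whereas the other 7 genes are already present in MEFs.

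Before iPSCs, none of the 10 genes was called. For day 3 against MEFs 7 genes could be compared and 0 were called, where 0.170% of all rows were higher and 0.0511% lower. For day 6 against day 3 it was 0 of 7, beside 0.457% and 0.398%, and for day 6 against MEFs 0 of 7, beside 0.770% and 0.584%. The median difference of the 7 genes at day 6 against MEFs was 0.38, with 5 above 0 and 2 below, and that of all rows was -0.02. The other 3 genes, Lin28a, Lin28b and Trim71, were under 1 FPKM in these libraries and were not compared. With so few calls in the whole table, the absence of calls among these genes says little about them.

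Lin28a, Lin28b and Trim71 went from the lower limit of the table to 43.8, 4.81 and 28.1 FPKM in iPSCs. Lin28a (ENSMUSG00000050966) had 0.00909 FPKM in MEFs, was listed at 0 on day 3, had 0.0559 on day 6 and reached 43.8 in iPSCs. The iPSC value was above that of 90.7% of all rows. Its difference from MEFs was 5.47, and 99.7% of the rows compared had a smaller signed difference.

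Lin28b (ENSMUSG00000063804), the paralog that is kept in the nucleolus in some cells, was listed at 0 in MEFs and had 0.0211, 0.0316 and 4.81 FPKM in the later libraries. Its difference between iPSCs and MEFs was 2.54, and its iPSC value was above that of 52.6% of all rows. Of the summed FPKM of the LIN28 pair in iPSCs, Lin28a made up 90.1% and Lin28b 9.88%, a ratio of 9.12. Values below 0.1 FPKM in the early libraries are too few fragments to rank those libraries, and an exact 0 can be a failed estimate.

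Trim71 (ENSMUSG00000079259), also called Lin41, encodes a ubiquitin ligase and mRNA repressor and is a classic let-7 target. It stood at 0.0230, 0.0568 and 0.0233 FPKM in MEFs and on days 3 and 6, and at 28.1 FPKM in iPSCs. The difference between iPSCs and MEFs was 4.83, and the iPSC value was above that of 84.9% of all rows. For all 3 genes the early libraries lay together near 0 and the iPSC library stood apart. Pou5f1, a gene of the induced set, was already at 3.03 FPKM on day 3 and 8.56 on day 6.

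The transferases that LIN28A recruits exchanged rank. Zcchc11 (ENSMUSG00000034610) had 5.77 FPKM in MEFs, 9.53 on day 3, 9.59 on day 6 and 21.1 in iPSCs. Zcchc6 (ENSMUSG00000035248) had 16.1, 16.0, 15.3 and 8.95 FPKM in that order. Zcchc11 was thus lowest in MEFs and highest in iPSCs, and Zcchc6 was level until day 6 and lowest in iPSCs.

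For Zcchc11 the difference between iPSCs and MEFs was 1.71, which was called, and that of Zcchc6 was -0.78, which was not. The ratio of Zcchc11 to Zcchc6 went from 0.358 in MEFs to 0.596 on day 3, 0.627 on day 6 and 2.36 in iPSCs. Their summed FPKM moved less, from 21.9 in MEFs to 25.5, 24.9 and 30.1. Of the members compared, Zcchc11 had the largest difference at day 3 against MEFs (0.64), which lay within the rule although 99.1% of all rows compared had a smaller signed difference.

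Between day 3 and day 6 Zcchc11 differed by 0.01, so its early difference was seen between MEFs and day 3 and not after. By the steps of the lowest values the day 3 library was the shallowest, though the depth is unknown. The medium of the MEFs is not given. A change of medium and the induction itself cannot be told apart here. RefSeq places 6 other genes, snRNA, snoRNA and pseudogene entries, within the bounds of Zcchc11.

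**Figure D2:**
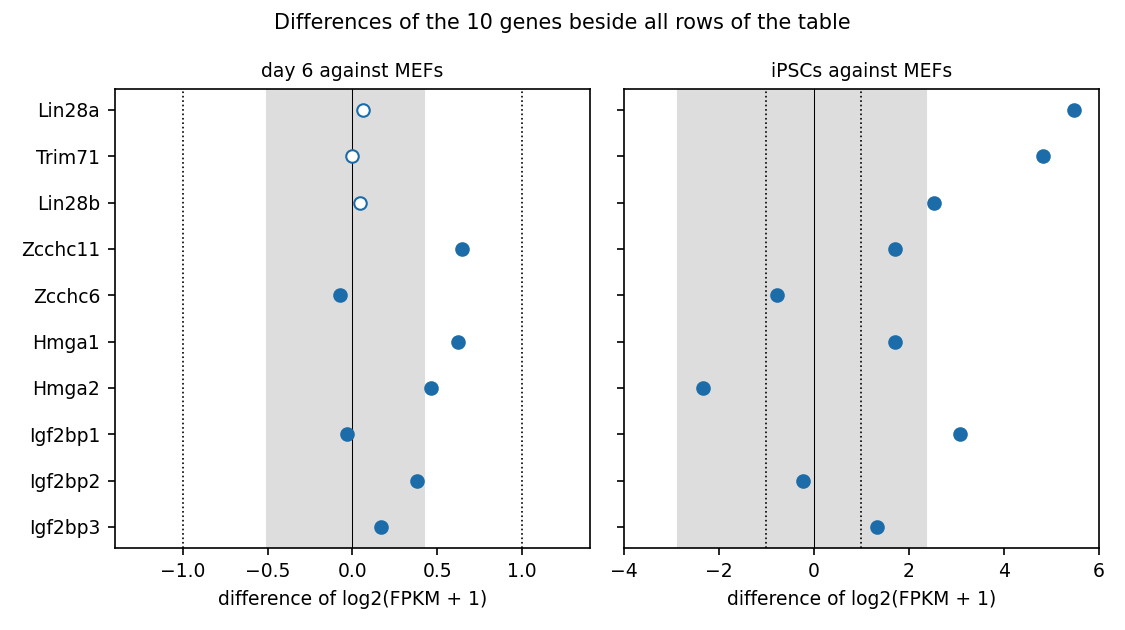
Difference of log2(FPKM + 1) for each gene at day 6 against MEFs (left) and in iPSCs against MEFs (right), with a grey band from the 5th to the 95th percentile of all rows compared, dotted lines at differences of 1 and -1, and open circles for genes under 1 FPKM in both libraries. The horizontal scales differ, and at day 6 Zcchc11, Hmga1 and Hmga2 lie to the right of the band but inside the dotted lines.

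The HMGA genes, which encode small chromatin proteins that bind the minor groove of AT-rich DNA, went opposite ways. Hmga1 (ENSMUSG00000046711) had 31.4 FPKM in MEFs, 37.6 on day 3, 49.0 on day 6 and 105 in iPSCs, with each library above the one before. Hmga2 (ENSMUSG00000056758), one of the best known let-7 targets, had 21.5, 28.4, 30.1 and 3.47 FPKM. Its values on both days of induction were above the MEF value, and its iPSC value was the lowest of the 4.

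In iPSCs against MEFs, Hmga1 was called higher with a difference of 1.71 (3.35-fold in FPKM) and Hmga2 lower with -2.33 (6.20-fold lower). Against day 6 the difference of Hmga2 was -2.80, and 4.70% of all rows compared had a smaller signed value. The ratio of Hmga1 to Hmga2 was 1.46, 1.32 and 1.63 in the first 3 libraries and 30.3 in iPSCs. Hmga1 was the most abundant of the 10 genes in every library, and Hmga2 was the least abundant of them in iPSCs.

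At day 6 against MEFs both were within the rule, at 0.63 for Hmga1 and 0.47 for Hmga2. Of all rows compared, 97.9% and 96.0% had smaller signed differences. Whether counting used strand is not stated, and RefSeq places 4 lncRNA genes and the microRNA gene Mir763 over Hmga2.

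The IGF2BP genes encode RNA-binding proteins that stabilise and localise mRNAs such as those of Igf2 and Myc, and are abundant in the embryo and in tumours. Igf2bp1 (ENSMUSG00000013415) had 5.35, 5.73 and 5.21 FPKM in MEFs and on days 3 and 6, and 52.3 in iPSCs. Igf2bp3 (ENSMUSG00000029814) had 6.65, 6.57, 7.59 and 18.3 FPKM across the 4 libraries. Igf2bp2 (ENSMUSG00000033581), the paralog that persists most after birth, had 23.7, 25.9, 31.3 and 20.2 FPKM.

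Against MEFs, Igf2bp1 was called higher in iPSCs by 3.07 (9.79-fold in FPKM), and Igf2bp3 by 1.34 (2.75-fold). Igf2bp2 was within the rule at -0.22 and was highest on day 6, where it differed from MEFs by 0.38. As a share of the summed FPKM of the 3 genes, Igf2bp1 went from 15.0% in MEFs to 57.6% in iPSCs and Igf2bp2 from 66.4% to 22.2%. Igf2bp3 held between 17.2% and 20.2% in all libraries. The summed FPKM was 35.7 in MEFs, 38.2 and 44.1 on days 3 and 6, and 90.8 in iPSCs. RefSeq places the protein-coding gene Malsu1 over part of Igf2bp3, so reads of the overlap could count for either gene.

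**Figure D3:**
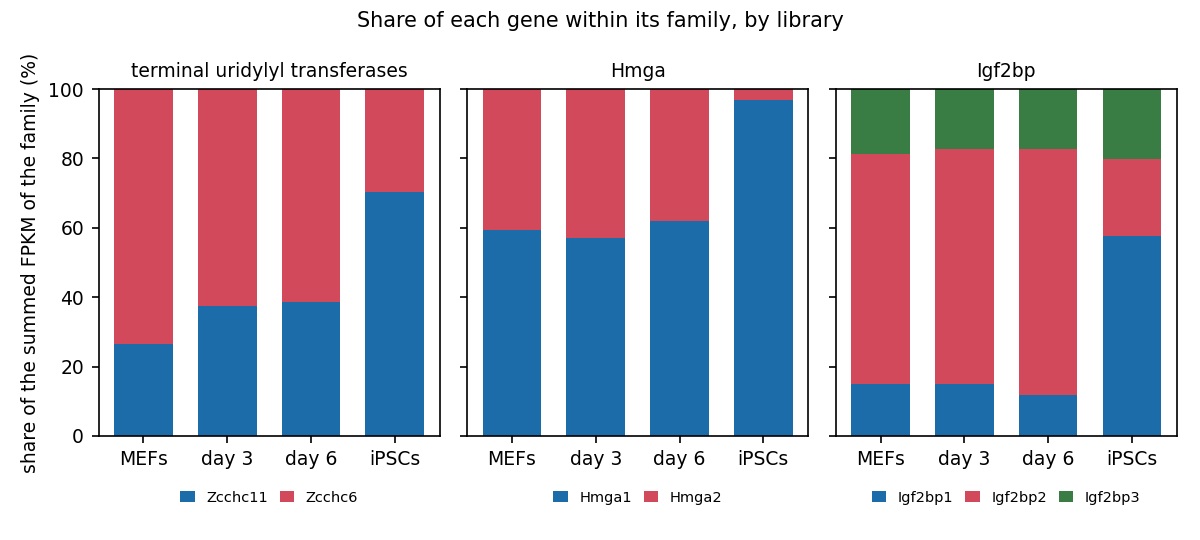
Share of each paralog in the summed FPKM of its family, in percent, for the transferases Zcchc11 and Zcchc6 (left), the HMGA genes (centre) and the IGF2BP genes (right) in the 4 libraries. The leading gene changes between day 6 and iPSCs from Zcchc6 to Zcchc11 and from Igf2bp2 to Igf2bp1, and Hmga1 goes from 61.9% to 96.8%.

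Ordered by level, the genes read differently at the start and at the end of the series. In MEFs the order was Hmga1, Igf2bp2, Hmga2, Zcchc6, Igf2bp3, Zcchc11 and Igf2bp1, with Trim71, Lin28a and Lin28b near 0. In iPSCs it was Hmga1, Igf2bp1, Lin28a, Trim71, Zcchc11, Igf2bp2, Igf2bp3, Zcchc6, Lin28b and Hmga2. Neighbours such as Igf2bp2 and Hmga2 in MEFs (23.7 and 21.5 FPKM), or Zcchc11 and Igf2bp2 in iPSCs (21.1 and 20.2 FPKM), cannot be ordered without replicates.

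Genes with nearly the same profile were sought for the 4 members with the widest range, by the Euclidean distance of log2(FPKM + 1) over 4 libraries among 13101 rows with at least 1 FPKM in any of them. Such a profile rests mostly on the step between day 6 and iPSCs, and 4 points are few. The rows closest to Lin28a were Dppa4, a pluripotency-associated nuclear protein (distance 0.16, 48.1 FPKM in iPSCs), the glycine decarboxylase gene Gldc (0.18, 43.0 FPKM) and Rbmxl2 (0.19, 38.3 FPKM). Closest to Trim71 were Gm13154 (0.03), Aire (0.05), a transcriptional regulator best known from the thymus, and Gm9631 (0.06).

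For Igf2bp1 the closest rows were the hexokinase gene Hk2 (0.23) with 5.65 FPKM in MEFs and 51.4 in iPSCs, the histone methyltransferase gene Suv420h2 (0.35) and the RNA helicase gene Mov10 (0.36). Those closest to Hmga2 were the kinase gene Eef2k (0.12) with 21.5, 30.8, 31.0 and 3.58 FPKM, the transcription factor gene Trps1 (0.25) and Vopp1 (0.27).

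Promoter windows, from 250 bases before to 50 after the annotated start, were held by RefSeq for 9 of the 10 genes, in 12 windows. They are shown for the 3 genes that were under 1 FPKM until day 6 and above it in iPSCs, and for Hmga1 because of its octamer. Capitals mark any match, on either strand, to the E-box CACGTG (bound by MYC), the octamer ATGCAAAT (bound by POU factors such as OCT4), the TATA box TATAAA or the GC box GGGCGG (bound by SP and KLF factors). Over all 32851 windows of this length, 7.15% held the E-box, 1.74% the octamer, 13.6% the TATA box and 35.7% the GC box. Coordinates are GRCm38.p6 and all but Hmga1 lie on the minus strand, at chr4:134018767-134019066 (Lin28a), chr10:45470152-45470451 (Lin28b), chr9:114564320-114564619 (Trim71) and, on the plus strand, chr17:27556324-27556623 (Hmga1).
Lin28a: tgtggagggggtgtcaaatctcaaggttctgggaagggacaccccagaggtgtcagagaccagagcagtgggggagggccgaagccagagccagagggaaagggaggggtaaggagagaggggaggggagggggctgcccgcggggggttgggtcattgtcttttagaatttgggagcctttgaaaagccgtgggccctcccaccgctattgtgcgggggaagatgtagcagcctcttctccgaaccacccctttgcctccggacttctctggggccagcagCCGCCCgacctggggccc
Lin28b: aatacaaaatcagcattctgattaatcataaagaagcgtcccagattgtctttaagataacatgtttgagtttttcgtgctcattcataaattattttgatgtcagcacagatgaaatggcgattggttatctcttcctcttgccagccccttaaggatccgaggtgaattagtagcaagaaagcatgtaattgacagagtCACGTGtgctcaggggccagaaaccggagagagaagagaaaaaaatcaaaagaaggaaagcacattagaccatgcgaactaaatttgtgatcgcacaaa
Trim71: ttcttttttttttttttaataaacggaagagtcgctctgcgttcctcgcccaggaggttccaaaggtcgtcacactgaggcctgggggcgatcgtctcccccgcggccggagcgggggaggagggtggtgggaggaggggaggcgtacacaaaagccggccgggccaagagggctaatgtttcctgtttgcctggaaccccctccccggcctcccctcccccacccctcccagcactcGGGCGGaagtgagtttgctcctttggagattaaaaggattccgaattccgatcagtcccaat
Hmga1: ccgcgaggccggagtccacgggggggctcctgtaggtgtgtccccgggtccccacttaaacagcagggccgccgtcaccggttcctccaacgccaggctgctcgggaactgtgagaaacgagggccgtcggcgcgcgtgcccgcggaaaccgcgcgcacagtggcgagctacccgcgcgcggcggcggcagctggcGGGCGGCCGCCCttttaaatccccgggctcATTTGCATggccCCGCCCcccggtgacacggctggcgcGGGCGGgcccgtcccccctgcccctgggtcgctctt

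The 3 windows of Lin28a, Lin28b and Trim71 differed in part. Lin28a and Trim71 each held 1 GC box, and Lin28b held 1 E-box and no GC box. Their GC content was 63.3%, 39.0% and 59.3% for Lin28a, Lin28b and Trim71, beside a median of 52.7% over all windows. The observed-to-expected ratio of CpG was 0.351, 0.708 and 0.720, beside a median of 0.384. Among the 9 genes, the octamer was matched in 1 (Hmga1, in both of its overlapping windows), the E-box in 2 (Lin28b and Igf2bp3), the GC box in 7 and the TATA box in 0. A match of letters is not a measured binding site.

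Most genes of the wider let-7 pathway stayed inside the rule. Of 22 genes of let-7 processing and turnover, 4 were called higher and 1 lower when iPSCs were set against MEFs, beside 21.1% and 25.0% of all rows, and their median difference was 0.24. Hnrnpa1, an RNA-binding protein known to hinder let-7 processing, had 58.9 FPKM in MEFs and 268 in iPSCs. Khsrp, a protein known to promote that processing, had 15.9 and 36.5 FPKM.

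Msi1, an RNA-binding protein that works with LIN28, had 1.63 FPKM in MEFs and 7.77 in iPSCs, and the nuclease gene Drosha had 11.1 and 26.8. The Argonaute gene Eif2c3 was the one called lower, with 12.8 and 4.73 FPKM. Tarbp2, a Dicer partner, passed the rule only against day 6, with 15.4 FPKM there and 36.7 in iPSCs. Dis3l2, the nuclease that degrades uridylated precursors, was within the rule at 4.39 FPKM in MEFs and 8.79 in iPSCs, as was Dicer1 at 13.9 and 18.6. All 22 were within the rule at day 3 and day 6 against MEFs, where at most 0.770% of all rows were called in a direction. With so few calls in the whole table, this says little about these genes.

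No row of the table carried the name of a let-7 precursor. Huwe1, whose gene holds the precursors of let-7f-2 and miR-98, had 92.6 FPKM in MEFs and 109 in iPSCs and was within the rule. The row 2610203C20Rik, a RefSeq synonym of the lncRNA gene Mir100hg that holds let-7a-2, had 18.5 FPKM in MEFs, 23.5 on day 3, 18.8 on day 6 and 0.125 in iPSCs. Its difference between iPSCs and MEFs was -4.12. That row's Ensembl identifier now has another symbol, so its identity rests on the symbol alone, and a host transcript does not give the level of a mature microRNA.

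Other known let-7 targets showed no common direction. Of 33 listed 31 were found and 29 were compared between iPSCs and MEFs, and 10 were called higher and 9 lower, beside 21.1% and 25.0% of all rows, with a median of 0.02. Among the higher ones, Mycn, a MYC family gene, was listed at 0 in MEFs and had 22.1 FPKM in iPSCs. The transcriptional repressor gene Hic2 had 0.584 and 11.8 FPKM. Mycn and Hic2 were under 1 FPKM in MEFs, so they met the minimum only through the iPSC library.

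Among the lower ones, the cyclin gene Ccnd2 had 100.3 FPKM in MEFs and 3.17 in iPSCs, and the death receptor gene Fas 34.4 and 2.67. The collagen genes Col1a2 (1457 and 11.8 FPKM) and Col3a1 (553 and 2.62 FPKM) were lower too, and Col1a2 is also a fibroblast marker here. Myc, a factor of the transgene, was another, with 16.8, 21.2, 22.8 and 1.83 FPKM from MEFs to iPSCs, and was within the rule on both days of induction. The cytokine gene Il6 alone was called before iPSCs, higher at day 6 against MEFs, beside 0.770% of all rows. It had 1.77 FPKM in MEFs, 1.56 on day 3, 5.18 on day 6 and 0.132 in iPSCs. Macrophages are another source of Il6, and the summed level of 8 markers of macrophages and leukocytes was 74.2, 53.3, 58.5 and 51.5 FPKM, of which 38.5 in iPSCs was Laptm5. Ptprc and Emr1, which define these cells, were listed at 0 in iPSCs. The part of such cells in the Il6 values was not tested.

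**Figure D4:**
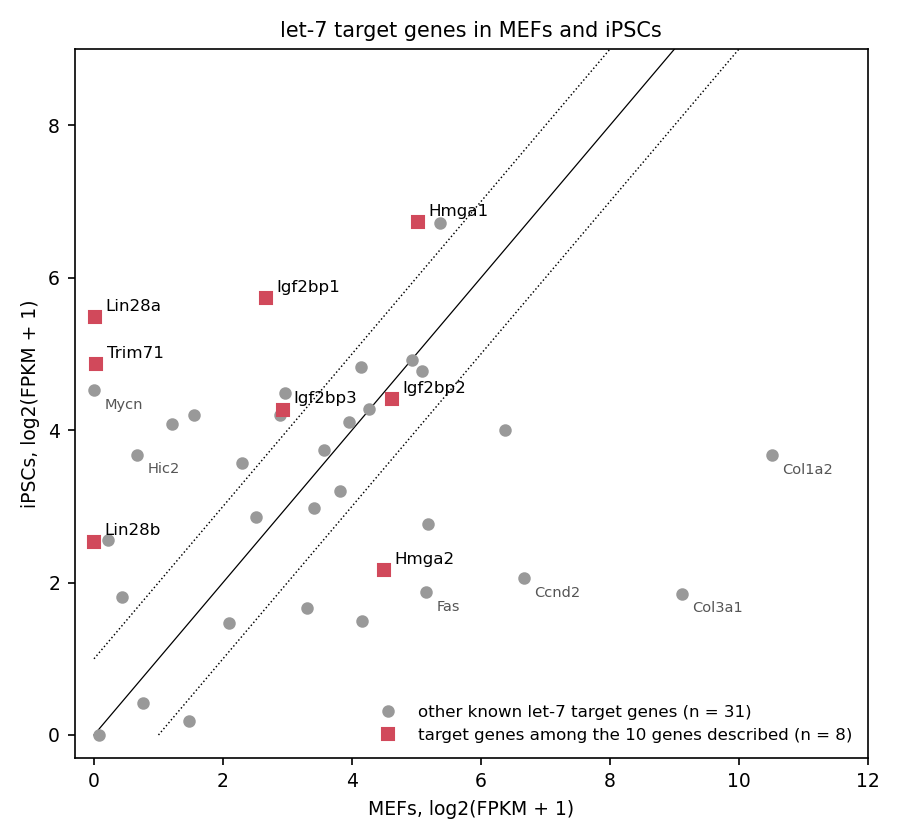
Level of known let-7 target genes in MEFs (horizontal) and iPSCs (vertical), as log2(FPKM + 1), with 8 of the 10 genes described in red and 31 other targets in grey, a solid line of equality and dotted lines at differences of 1. The grey points lie on both sides of the dotted lines, and of the red points Hmga2 alone is below them.

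Of 7 mRNAs known to be repressed by TRIM71, 6 were called lower in iPSCs and 0 higher against MEFs, beside 25.0% and 21.1% of all rows, and the median was -1.51. The immediate early gene Egr1 had 72.4 FPKM in MEFs and 0.347 in iPSCs, and the splicing regulator gene Mbnl1 172 and 3.29. The homeobox gene Hoxa5 had 8.45 and 0.234 FPKM, the cell cycle inhibitor gene Cdkn1a 66.1 and 22.5, the retinoblastoma family gene Rbl2 14.3 and 5.72, and the plexin gene Plxnb2 69.4 and 33.2. Rbl1 was within the rule at 6.97 and 10.4 FPKM. All 7 were within the rule at day 3 and day 6, when under 1% of all rows were called in either direction. Fibroblast markers were also lower in iPSCs (8 of 8 called), and the part of cell identity in these differences was not tested.

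Of 13 IGF pathway genes found (14 listed), 8 were called lower and 1 higher in iPSCs against MEFs, beside 25.0% and 21.1% of all rows, with a median of -2.00. Among the 5 ligand and receptor genes 3 were lower (Igf1, Igf1r and Igf2r), Igf2 was higher and Insr was within the rule. Igf2, the fetal growth factor, had 2.35 FPKM in MEFs, 3.06 on day 3, 3.76 on day 6 and 21.0 in iPSCs. The receptor gene Igf1r, also counted among the let-7 targets, had 35.4 FPKM in MEFs and 5.80 in iPSCs.

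Of the 6 genes of IGF-binding proteins 4 were called lower in iPSCs against MEFs, beside 25.0% of all rows. Igfbp3 and Igfbp6 were within the rule. Igfbp2 had 10428 FPKM in MEFs and 468 in iPSCs, Igfbp4 233 and 25.6, Igfbp5 9.18 and 0.740, and Igfbp7 1259 and 4.23. At day 6 against MEFs Igfbp3 was called higher, as were 0.770% of all rows. It had 5.94 FPKM in MEFs, 9.07 on day 3, 31.3 on day 6 and 10.4 in iPSCs.

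Oncofetal and fetal growth genes were mixed, with 3 of 10 compared (11 of 13 listed were found) called higher in iPSCs and 5 lower against MEFs, beside 21.1% and 25.0% of all rows, and a median of -0.70. The retrotransposon-derived imprinted gene Peg10 had 3.74 FPKM in MEFs and 101.0 in iPSCs, and the cell cycle inhibitor gene Cdkn1c had 3.20, 1.59, 0.982 and 19.5 FPKM from MEFs to iPSCs. Cdkn1c was also the only gene of this list called before iPSCs, lower at day 6 than in MEFs, beside 0.584% of all rows. Mest had 210.2 FPKM in MEFs and 25.3 in iPSCs, Grb10 405.5 and 26.3, and Plagl1 41.9 and 2.94. Afp, the liver oncofetal marker, stayed at 0.218 FPKM or below.

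Among the other high mobility group genes, 1 of 7 compared (8 listed) was called higher and 1 lower in iPSCs against MEFs, beside 21.1% and 25.0% of all rows, with a median of 0.80. Hmgb2, a DNA-bending protein of dividing cells, had 5.19 FPKM in MEFs and 58.1 in iPSCs, and the nucleosome-binding protein gene Hmgn3 had 59.0 and 9.17.

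**Figure D5:**
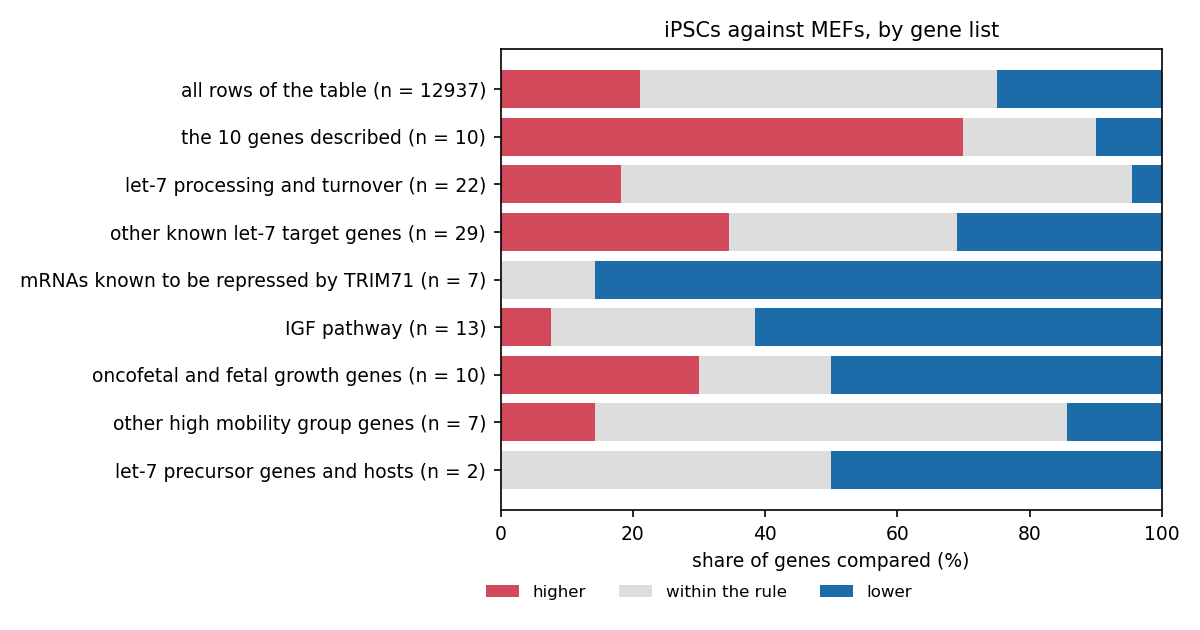
Share of the genes compared that were higher (red), within the rule (grey) or lower (blue) in iPSCs against MEFs, for all rows of the table, the 10 genes described and 7 gene lists, with the number of genes compared in brackets. The list of mRNAs repressed by TRIM71 has 6 of 7 genes lower, and the list of other let-7 targets has 10 of 29 higher and 9 lower.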

How the data were processed

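Long RNA was measured in 4 libraries, 1 per stage, from total RNA after removal of ribosomal RNA, per the labels' protocols. The authors deposited 1 table of FPKM values, per the file headers. The submitters' processing notes list HISAT2, Cufflinks and mm9 without saying which step each served. No source used here states the gene models, strand setting, filters or any pooling. The depth is unknown.

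From these values, differences of log2(FPKM + 1) were computed with pandas 2.3.3 and NumPy 2.4.6, with the rule of at least 1 and at least 1 FPKM. The code of the rule was run on simulated data with large changes planted in 200 well expressed rows. That run checks the code and does not show how the rule performs on small differences or low values. No count model or test was used. The 10 genes, 7 gene lists and markers were chosen with earlier results of these data known. From a list, up to 6 genes past the rule with the largest iPSC difference from MEFs are named, plus any past the rule earlier. Dis3l2, Dicer1, Rbl1, Huwe1, Afp, Igf1, Igf2r, Insr, Igfbp6 and Myc were added after their values were seen. Alternatives were pseudocounts of 0.1 and 5, a difference of 2, a minimum of 5 FPKM or none, and rescaling by upper quartile or median of ratios. The 4 small RNA libraries were not used.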

Additional observations from a re-analysis of the deposited data

How the results depend on the processing

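With 1 library per stage no call has a replicate check, no library could be left out, and low values limit what can be said of Lin28a, Lin28b and Trim71 before iPSCs. No paired analysis was possible because every stage is represented by a single library. Of 350 differences of single genes among the 10 under the alternatives, 338 stayed on their side of the rule, 12 dropped below it and none of the called ones changed sign. Only the 8 genes called in each iPSC comparison could drop, and all 12 drops were theirs. The other differences were within the rule or not compared, and the stricter settings could not add calls among them. The 338 therefore does not measure how stable the calls are. The upper-quartile rescaling moved the median of all rows in iPSCs against MEFs from -0.05 to 0.11, and it kept every call among the 10 genes. It turned the sign of 3 differences that were within the rule and close to 0 (Igf2bp1 at day 6 against MEFs, Igf2bp3 and Zcchc6 at day 3 against MEFs).

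Of the 10 genes, 8 were past the rule in iPSCs against day 6. A pseudocount of 5 left 5 there, with Lin28b (0.96), Zcchc11 (0.84) and Igf2bp3 (0.89) under it, and in iPSCs against MEFs Lin28b fell under it too (0.97). Over all rows that setting called 1437 higher and 1842 lower of 12951 against day 6, and 1502 and 1985 of 12937 against MEFs. A difference of at least 2 left 5 in each of the iPSC comparisons, without Zcchc11, Hmga1 and Igf2bp3. With it, 880 of all 12951 rows were higher and 1226 lower against day 6, and 915 and 1279 of 12937 against MEFs. A minimum of 5 FPKM removed Lin28b from both. Under that minimum 1973 of all 10035 rows were higher and 2492 lower against day 6, and 2031 and 2673 of 10056 against MEFs. In iPSCs against MEFs, the let-7 processing list had 1 gene past the rule in place of 5, with a pseudocount of 5 and with a difference of 2. The counts over all rows under those settings are given above. With a difference of 2 the other let-7 targets had 12 in place of 19 and the list of mRNAs repressed by TRIM71 had 3 in place of 6. These shifts follow from the stricter settings themselves.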
